A study of Mus musculus with 2040 samples.

Results

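The genes described here are the subunits of the ionotropic and metabotropic glutamate receptors and of the GABA-A receptor, in single glial cells and neurons of the mouse brain. They were chosen by symbol alone: every gene column whose name is Gria, Grid, Grik, Grin or Grm plus a digit, Gabra, Gabrb, Gabrg or Gabrr plus a digit, or Gabrd, Gabre, Gabrp or Gabrq. The rule found 47 of 32245 gene columns. Of these, 2 match the pattern without being subunits, among them Grin1os, a transcript antisense to Grin1, which leaves 45 subunit genes. These are 4 AMPA, 2 delta, 5 kainate, 7 NMDA and 8 metabotropic receptor genes, and 6 alpha, 3 beta, 3 gamma and 7 other GABA-A genes.

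The study sorted SYFP2-positive single cells from C57Bl/6J mice that carried an adeno-associated virus vector, named for the enhancer or promoter that drives its fluorescent reporter, and made 1 SMARTerv4 library of polyadenylated RNA per cell. Age, sex and dose are not given in the sources used here, and no group was left without a vector. The cells came from 47 mice and 30 vectors, and from VISp (primary visual cortex), MB/HB (midbrain and hindbrain) and CBX (cerebellar cortex). Cell classes were rebuilt by clustering without the receptor genes and named from marker lists, so "astrocyte", "oligodendrocyte" and "GABAergic neuron" below mean astrocyte-like, oligodendrocyte-like and GABAergic neuron-like cells. The replicate is the mouse, and a mouse's value is the mean over its cells of a class in CPM, the reads of a gene scaled to a total that is the same for every cell.

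VISp astrocytes came from 19 mice with 12 vectors (12 to 46 cells a mouse), and VISp oligodendrocytes from 22 mice with 15 vectors (18 to 63 cells). MB/HB astrocytes came from 4 mice (32 to 41 cells): MouseID-615516 and MouseID-651222 with eHGT_381h, and MouseID-651228 and MouseID-651229 with MGT_E160m. CBX astrocytes came from 2 mice with eHGT_375m (81 cells), MouseID-614198 and MouseID-651221. None of these 3 vectors was used in VISp, so tissue and vector cannot be told apart. VISp GABAergic neurons (52 cells) were sorted along with glia in 3 mice: MouseID-614201 with eHGT_374m (7 cells) and MouseID-638254 and MouseID-651227 with MBP_promoter (19 and 26 cells). Values of these small groups are listed below in this order of mice, and values of the VISp glia as the lowest, the highest and the median mouse. A further 12 neurons of 1 MB/HB mouse, MouseID-651222, clustered with the GABAergic neurons. A vector selects the cells that enter a class, so astrocytes of 1 vector need not stand for all astrocytes of a tissue. All cells had distinct plate names, and no 2 cells had equal values. Plate names began with AB or SM, and of these groups SM plates held only 3 VISp astrocyte and 6 VISp oligodendrocyte mice. The labels do not say that the mice were prepared on separate days. A p-value sets a difference against the spread between these mice, whatever the source of that spread. Each fit estimated 1 spread per gene over all its groups together. For CBX against MB/HB astrocytes that spread thus also holds the 19 VISp mice, the largest of the 3 groups.

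The 3 astrocyte groups carried all 14 genes of the astrocyte list, with summed levels of 32346 to 40893 CPM in VISp, 33334 to 40446 in MB/HB and 37942 to 39440 in CBX. The 10 GABAergic markers summed to 13562 to 26685 CPM in VISp GABAergic neurons, and the 12 oligodendrocyte markers to 64246 to 88119 CPM in oligodendrocytes. CBX astrocytes were also high in markers of Bergmann glia, the radial astrocytes of the cerebellar cortex, at 18282 to 19392 CPM against 992.2 to 1619.4 CPM in VISp and 1201.9 to 3818 CPM in MB/HB astrocytes, where Gdf10 of that list was at 0 to 452.02 CPM. The astrocytes of the 3 tissues lay in different clusters: the VISp cells, but for 2, in 3 clusters that also held 3 MB/HB cells and 1 CBX cell, the MB/HB cells, but for 9, in a cluster led by Agt, and 79 of the 81 CBX cells, with 6 MB/HB cells, in a cluster led by Gdf10. A difference between tissues below is thus also one between clusters. Reads of over 50% of the markers of another class were found in 19.8% of CBX astrocytes, 13.5% of MB/HB astrocytes, 3.65% of VISp astrocytes, 7.8% of VISp oligodendrocytes and 6.67% of VISp GABAergic neurons. The astrocyte list summed to 257.3 to 289.5 CPM and the oligodendrocyte list to 50.8 to 100.9 CPM in the VISp neurons. Depth, recovered from the steps between CPM values, was 57873 to 1455022 reads per cell, with medians per group of 319848 to 442877.

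Ionotropic glutamate receptors are cation channels built of subunits from 1 family each. In AMPA receptors the edited GluA2 subunit, encoded by Gria2, keeps calcium out, and receptors without it let calcium pass. Bergmann glia are known for AMPA receptors that lack GluA2, with which they sense transmitter release from climbing and parallel fibres. Metabotropic receptors act through G proteins: Grm5 couples to phospholipase C, and Grm3 lowers cyclic AMP. GABA-A receptors are chloride channels; most combine alpha and beta subunits with a gamma or delta subunit.

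Upstream sequences are shown for 2 pairs whose members the results turn on. Gria2 and Gria4 are AMPA genes that differed in opposite directions between astrocytes of different tissues. Gabrg1 and Gabra2 are neighbours on chromosome 5 that were both high in astrocytes and low in oligodendrocytes. Each line gives the 250 bases before the RefSeq start of the gene, 5′ to 3′ on the gene's strand, which is the minus strand for all 4 (build GRCm38.p6), at chr3:80802836-80803085, chr9:4796235-4796484, chr5:70842618-70842867 and chr5:71095850-71096099. Capitals mark a match to a searched motif.
Gria2: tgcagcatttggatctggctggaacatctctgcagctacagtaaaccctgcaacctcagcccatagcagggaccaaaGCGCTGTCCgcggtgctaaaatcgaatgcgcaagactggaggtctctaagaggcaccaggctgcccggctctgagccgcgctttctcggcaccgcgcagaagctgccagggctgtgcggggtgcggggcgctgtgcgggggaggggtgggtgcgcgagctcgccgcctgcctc
Gria4: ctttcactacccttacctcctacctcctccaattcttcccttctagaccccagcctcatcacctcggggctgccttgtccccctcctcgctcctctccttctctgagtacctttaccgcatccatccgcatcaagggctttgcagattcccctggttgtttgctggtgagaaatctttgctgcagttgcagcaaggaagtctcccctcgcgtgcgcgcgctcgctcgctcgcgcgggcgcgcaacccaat
Gabrg1: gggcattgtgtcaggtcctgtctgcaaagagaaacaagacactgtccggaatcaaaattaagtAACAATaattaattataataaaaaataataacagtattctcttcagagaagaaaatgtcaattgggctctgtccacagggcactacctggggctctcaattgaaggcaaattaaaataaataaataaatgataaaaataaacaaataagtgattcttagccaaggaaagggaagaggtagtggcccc
Gabra2: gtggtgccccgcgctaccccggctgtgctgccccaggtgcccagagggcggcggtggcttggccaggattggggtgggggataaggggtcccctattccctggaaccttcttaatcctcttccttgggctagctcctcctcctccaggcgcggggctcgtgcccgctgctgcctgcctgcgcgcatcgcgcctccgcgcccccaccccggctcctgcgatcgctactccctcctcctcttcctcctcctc

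Of the 45 subunit genes, 30 had such a window, and 3 motifs were searched on both strands. GGACAGCGC and TTCAGCACC are parts of RE1, the element bound by the repressor REST, and AACAAT is a core bound by SOX factors. The first occurs in 0.304% of all 32851 windows and, of the subunit genes, in Gria2 only, where it reads GCGCTGTCC. The second was found in 0.301% of windows and in Grm2 alone. The SOX core was found in 9.42% of windows and in Gabra3, Gabrb1 and Gabrg1. The windows of Gria4 and Gabra2 held none of the 3. These are letter matches, and none of the deposited data measured binding.

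**Figure D1:**
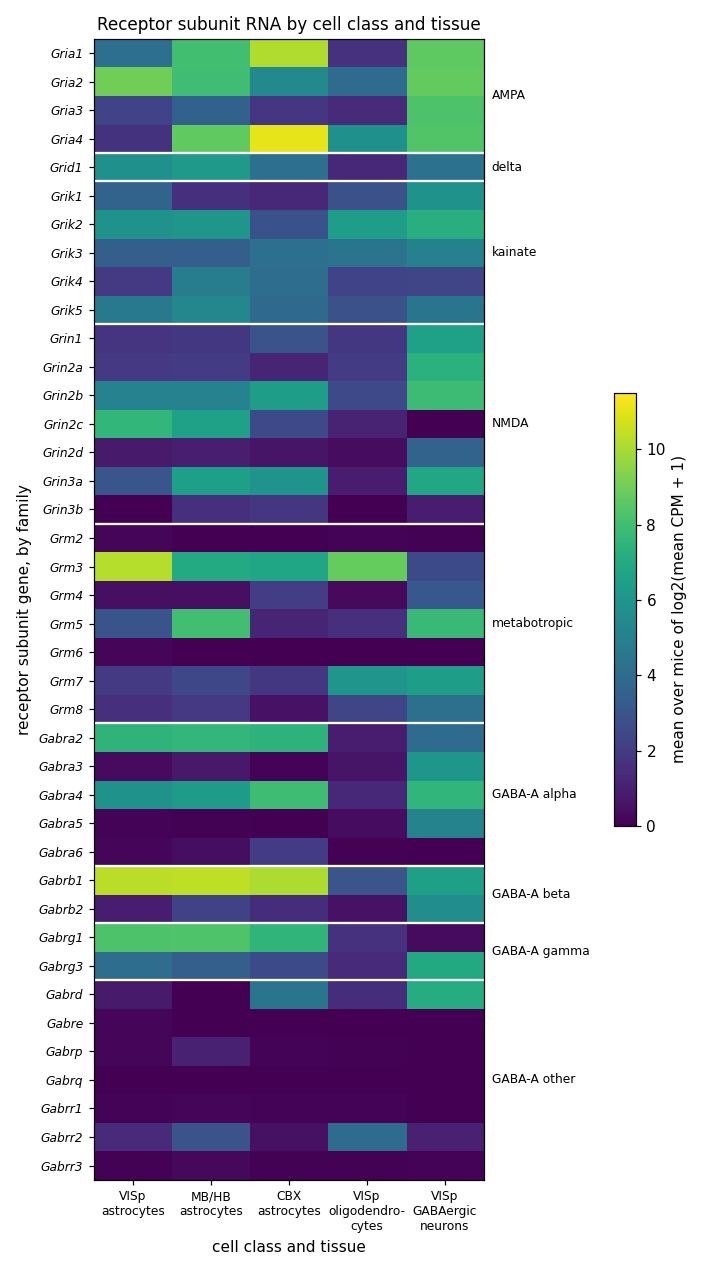
Heat map of 40 subunit genes (vertical axis, by family) in 5 groups of cells (horizontal axis). Colour is the mean over mice of log2(mean CPM + 1), from 0 to above 10. Gabrb1 and Grm3 are bright in VISp astrocytes, Gria1 and Gria4 in CBX astrocytes, and Gria1 to Gria4 and Gabrd in GABAergic neurons.

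Set per kilobase of annotated exon (GENCODE vM21, all exons of a gene joined), the order of the subunits differed among the groups shown in the heat map. VISp astrocytes were led by Grm3, the receptor mGlu3, at 400.6 CPM per kb, before Gabrb1 (93.8), Grin2c (39.8), Gabrg1 (39.5) and Gria2 (34.4). In MB/HB astrocytes the order began with Gabrb1 (99.8 CPM per kb), Gria4 (75.7), Gria1 (46.2) and Grm3 (44.2). CBX astrocytes were led by Gria4 (347.5 CPM per kb) and Gria1 (187.4), and also had Gabrb1 at 79.6. Oligodendrocytes had Grm3 (147.7 CPM per kb) far above Grm7 (13.4), Gabrr2 (9.49) and Gria4 (9.27). GABAergic neurons had Gria1 at 71.1 CPM per kb, Gabrd at 55.2 and Gria4 at 54. These levels depend on the annotated lengths, which for Gria2 (15548 bases) are over those of Gria4 (6305 bases), and differences within an order were not tested.

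The first question was how receptor subunits differ between astrocytes of 3 tissues. Each gene was tested with limma on log2(mean CPM + 1) per mouse, and p-values were adjusted by Benjamini-Hochberg over a panel of all receptor and list genes plus 4849 gene columns drawn at random. Log2 differences below are on that scale, which understates changes of low genes, and are given ± SE. In CBX against VISp astrocytes, 14 of 39 subunit genes tested passed an adjusted p of 0.05, 8 higher and 6 lower, where 12.2% of the 4550 genes tested did. In MB/HB against VISp astrocytes 9 of 39 passed, 6 higher and 3 lower, against 12.2% of all genes. Between CBX and MB/HB astrocytes 10 passed, 4 higher and 6 lower in CBX, against 9.56%. The first and second comparisons share the VISp mice. The median log2 difference of the subunits was -0.03, 0.26 and -0.29 in the 3 comparisons, and that of all genes -0.06, -0.05 and -0.02. With 1 CBX mouse left out, the CBX against MB/HB count was 5 (without MouseID-614198) or 6 (without MouseID-651221), and the CBX against VISp count was 10 both times; the remaining mouse is then assumed to vary like the other groups.

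Gria4, the AMPA subunit GluA4, had the largest difference of all subunits between astrocytes of 2 tissues. Its levels were 2353 and 2029 CPM in the CBX mice and 816.9, 182.4, 512.1 and 398.1 CPM in the MB/HB mice, and 0.113 to 19.7 CPM with a median of 1.13 in the 19 VISp mice. No CBX or MB/HB mouse overlapped the VISp mice. The log2 difference from VISp was 9.43 ± 0.90, adjusted p = 1.5e-09, for CBX and 7.04 ± 0.67, adjusted p = 1.9e-09, for MB/HB. A Gria4 read was found in 98.8% of CBX, 85.8% of MB/HB and 26% of VISp astrocytes. With each cell thinned to 100000 reads the shares were 98.8%, 75.7% and 9.5%.

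Gria1, which encodes GluA1, followed the same order. It was at 1158.9 and 1106.1 CPM in CBX and 472.99, 237.2, 169.1 and 237.6 CPM in MB/HB, against 5.17 to 154.8 CPM with a median of 16.9 in VISp. All CBX and MB/HB mice lay above the highest VISp mouse (5.97 ± 0.86, adjusted p = 3.6e-06, and 3.85 ± 0.64, adjusted p = 4.6e-05 on the log2 scale). Between CBX and MB/HB the log2 difference was 2.12 ± 1.0 for Gria1 and 2.38 ± 1.05 for Gria4, with adjusted p of 0.208 and 0.171, although both CBX mice were above all 4 MB/HB mice for both genes. Gria1 and Gria4 were read in the same cell in 97.5% of CBX, 56.8% of MB/HB and 8.53% of VISp astrocytes.

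Gria2 went the other way. The CBX mice had 49.6 and 40 CPM, below all other astrocyte mice, the MB/HB mice 338.5, 159.9, 271.9 and 255.6 CPM, and the VISp mice 274.9 to 805.6 CPM with a median of 518.4. The log2 difference of CBX was -3.49 ± 0.30, adjusted p = 2.0e-10, from VISp and -2.45 ± 0.35, adjusted p = 6.9e-06, from MB/HB. The MB/HB mice overlapped the VISp mice and were lower on average (-1.04 ± 0.23, adjusted p = 0.00142). Gria3 (GluA3) was low in all 3 groups, at 6.19 and 0.708 CPM in CBX, 23.7, 1.75, 11.1 and 24.2 in MB/HB and 0.0871 to 22.5 in VISp, and passed the test in none of the 3 comparisons.

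The makeup of AMPA receptor RNA differed by tissue. Per kb of exon, Gria2 made up 0.561 and 0.507% of the summed 4 subunits in the CBX mice and 9.38, 13.1, 13.7 and 13.5% in the MB/HB mice, and 63.3% to 97.5% (median 91.3%) in the VISp mice. Without scaling for length the ranges were 1.26% to 1.39%, 20.5% to 28.2% and 81.1% to 99%. The 3 groups did not overlap on either scale. Editing of the Gria2 transcript was not measured; of the 3 genes of RNA-editing enzymes (Adar, Adarb1 and Adarb2) none passed between tissues.

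**Figure D2:**
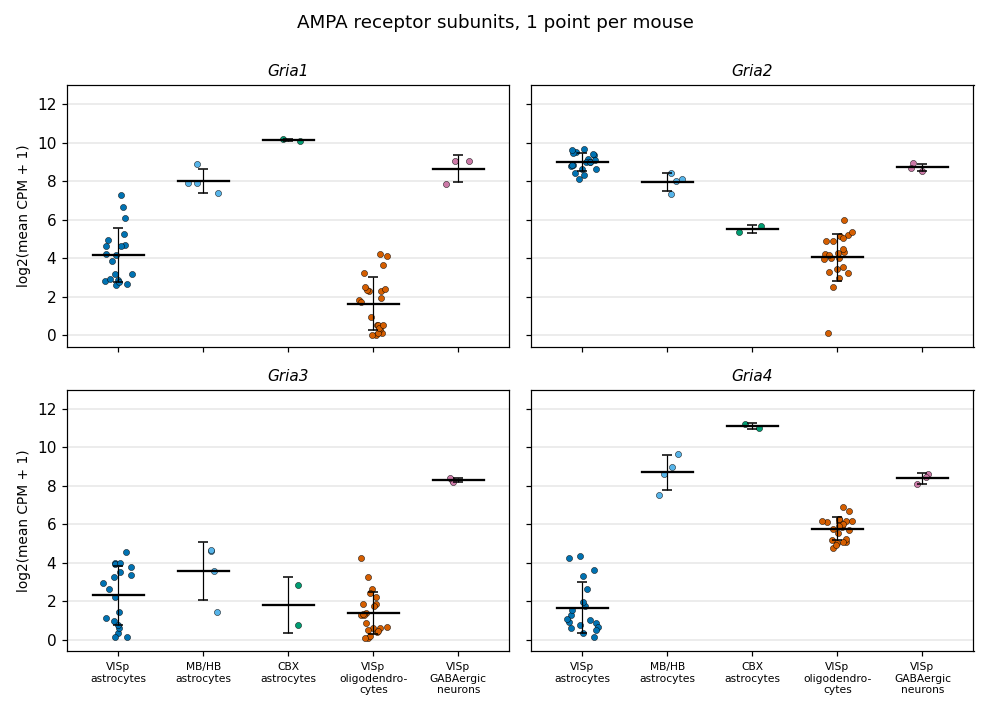
AMPA subunit levels as log2(mean CPM + 1) on the vertical axis, with 1 point per mouse, in 5 groups of cells; lines and bars are the mean and SD over mice. Gria4 and Gria1 are highest in the 2 CBX mice, where Gria2 is lower than in all other astrocyte mice, and Gria3 is high in the GABAergic neurons alone among the 5 groups.

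The delta receptor gene Grid1 was lower in CBX, at 17.7 and 16.6 CPM, than in MB/HB (76.6, 76.2, 47.8 and 102.2 CPM), and lay at the low end of the VISp range (14.6 to 133.3 CPM, median 65.3). Its log2 differences were -1.61 ± 0.52, adjusted p = 0.0361, from VISp and -2.03 ± 0.60, adjusted p = 0.0272, from MB/HB. Both were lost without MouseID-614198 (adjusted p = 0.234 and 0.157), without MouseID-651221 (0.281 and 0.193) and on the mean of log2 values over cells (0.103 and 0.101), and that from MB/HB also without MouseID-651229 (0.0656).

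Grin2c, the GluN2C subunit of NMDA receptors, is known as an astrocyte-enriched NMDA gene of the cortex. It was at 6.66 and 3.34 CPM in CBX, against 71.8, 54.7, 153.6 and 132.6 CPM in MB/HB and 142.3 to 296.5 CPM with a median of 206.3 in VISp. CBX was below every other astrocyte mouse (-5.10 ± 0.30, adjusted p = 1.9e-14 against VISp and -4.05 ± 0.34, adjusted p = 3.1e-10 against MB/HB), and the MB/HB mice, which overlapped VISp, were lower by a smaller step (-1.05 ± 0.22, adjusted p = 0.000974). Grin3a, a glycine-binding subunit, was at 166.01, 113.2, 58.2 and 55.5 CPM in MB/HB and 0 to 54.4 CPM with a median of 8.6 in VISp, with every MB/HB mouse above the VISp range (3.40 ± 0.76, adjusted p = 0.00193). In CBX it was at 71.4 and 50.9 CPM and did not pass against VISp (adjusted p = 0.0664).

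Grin1, the subunit that every NMDA receptor needs, was low in astrocytes of all tissues, at 8.56 and 5.25 CPM in CBX, 0.845, 4.13, 0.649 and 10.2 in MB/HB and 0.105 to 16.4 in VISp. Grin2b, the GluN2B subunit, was at 61.5 and 117.7 CPM in CBX, 32.8, 35.5, 15.5 and 67.8 in MB/HB and 10.6 to 60.4 in VISp, and passed in no tissue comparison. Grin3b had no read in any VISp astrocyte, which allows up to 0.00907 CPM, and passed as higher in CBX (2.13 and 2.94 CPM) and MB/HB (8.83, 0, 3.78 and 0.869 CPM), where 2 and 4 cells carried a read. Limits from a count of 0 cover counting error only. Grin2a and Grin2d passed in none of the 3.

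Of the kainate receptor genes, Grik2 (GluK2) was at 2.26 and 16.1 CPM in CBX, 79.5, 61, 48.3 and 90 CPM in MB/HB and 29.8 to 163.3 CPM with a median of 55.7 in VISp, with both CBX mice below all others. The difference from VISp was -2.99 ± 0.49, adjusted p = 3.4e-05, and that from MB/HB -3.20 ± 0.58, adjusted p = 0.000189. Without MouseID-614198 the adjusted p was 0.0756 and 0.0836. Grik4 (GluK4) was higher in MB/HB, at 36.5, 21.1, 12.2 and 68.8 CPM against 0 to 12.2 CPM with a median of 3.41 in VISp (2.94 ± 0.65, adjusted p = 0.0018). The lowest MB/HB mouse lay at the top of the VISp range. CBX had 16.4 and 16.2 CPM of Grik4 and did not pass (adjusted p = 0.116). Grik1, Grik3 and Grik5 passed between no 2 tissues.

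Among the metabotropic genes, Grm3 and Grm5 differed most. Grm3, which acts through Gi proteins, had 127.6 and 90.6 CPM in CBX and 182.9, 76.3, 131.6 and 148.6 CPM in MB/HB, against 892.1 to 1633.2 CPM with a median of 1182.7 in VISp. All 6 mice were far below the lowest VISp mouse (-3.47 ± 0.23, adjusted p = 4.1e-13 for CBX and -3.22 ± 0.17, adjusted p = 1.2e-14 for MB/HB), and CBX and MB/HB overlapped. Grm5, the Gq-coupled mGlu5, was at 416.4, 108.5, 272.6 and 341.5 CPM in MB/HB, 0.211 to 50 CPM with a median of 8.77 in VISp and 2.24 and 0.626 CPM in CBX. MB/HB lay above VISp without overlap (5.03 ± 0.79, adjusted p = 2.2e-05) and CBX below MB/HB (-6.80 ± 1.25, adjusted p = 0.000245). Of the other members, Grm4 passed as higher in CBX than VISp at 3.21 and 3.45 CPM, within the VISp range of 0 to 5.29 CPM (1.64 ± 0.50, adjusted p = 0.0254), and Grm2, Grm7 and Grm8 passed between no 2 tissues.

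**Figure D3:**
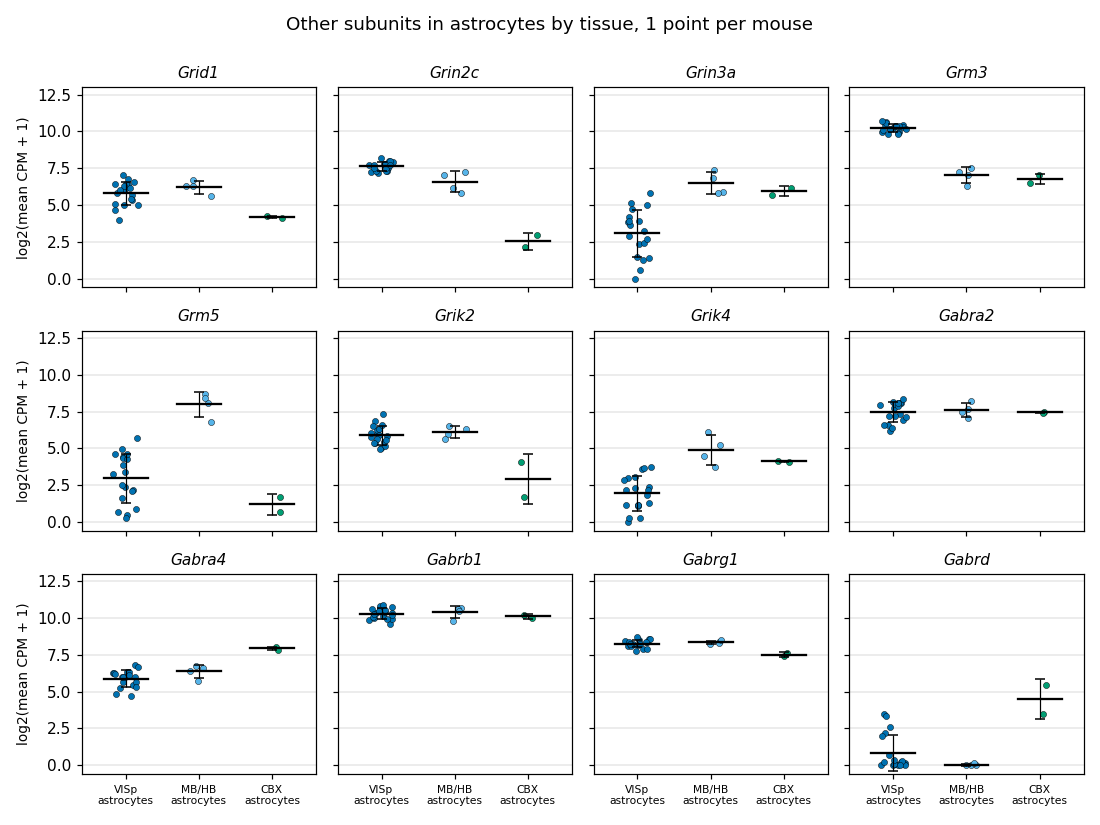
Levels of 12 subunits in astrocytes of VISp, MB/HB and CBX (horizontal axis) as log2(mean CPM + 1) with 1 point per mouse; lines and bars are the mean and SD. Grm3 is high in the 19 VISp mice alone, Grm5 in the 4 MB/HB mice, and Gabra4 is highest in the 2 CBX mice.

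Of the GABA-A genes, the alpha, gamma and delta subunits differed between tissues in 1 or more members and the beta subunits in none. Gabrb1 (beta1) was at 1185.8 and 1018.6 CPM in CBX, 1612.4, 888.5, 1593.6 and 1431.5 in MB/HB and 788.2 to 1861.9 CPM with a median of 1306.3 in VISp. Gabra2 (alpha2) was at 177.5 and 168.6 CPM in CBX, 199.1, 134.1, 302.1 and 174.9 in MB/HB and 69.9 to 331.7 in VISp. Neither passed in any tissue comparison (log2 difference of CBX from VISp -0.20 ± 0.25 and -0.02 ± 0.44). Gabra4 (alpha4) was higher in CBX, at 255.5 and 231.2 CPM against 105.4, 98, 84.4 and 51.4 CPM in MB/HB and 25.3 to 109.5 CPM with a median of 63.3 in VISp, with both CBX mice above all others. It passed against VISp (2.05 ± 0.39, adjusted p = 0.000286) and against MB/HB (1.56 ± 0.46, adjusted p = 0.0258), the latter lost without MouseID-614198 (adjusted p = 0.198), MouseID-651221 (0.153) or MouseID-651229 (0.0758).

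Gabrg1, the gamma1 subunit, was lower in CBX (168.3 and 195.4 CPM) than in MB/HB (293.8, 324.7, 317.7 and 361.4 CPM) and VISp (215.9 to 413.2 CPM with a median of 306.3), without overlap (-0.76 ± 0.19, adjusted p = 0.00631 against VISp). The difference from MB/HB was -0.83 ± 0.23, adjusted p = 0.0141. Both calls were lost without MouseID-614198 (adjusted p = 0.198 and 0.198) or MouseID-651221 (0.0525 and 0.0705). On the mean of log2 values over cells the adjusted p against VISp was 0.256, and the difference from MB/HB turned to 0.16 (adjusted p = 0.876).

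Gabrd, the delta subunit, passed as higher in CBX from low levels. It was at 10.4 and 42.2 CPM in CBX, 0, 0, 0 and 0.107 in MB/HB and 0 to 10 in VISp (3.65 ± 0.80, adjusted p = 0.00134). It was read in 10 of 81 CBX astrocytes.

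The 16 CBX astrocytes with RNA of another class had a mean of 116.1 CPM of Gabrd, and the other 65 a mean of 2.99 CPM. With such cells left out in all groups, Gabrd no longer passed against VISp (adjusted p = 0.428). Gabrd also lost its call without MouseID-651221 (0.176) and with the class called cell by cell (0.285). The same 3 settings ended its call against MB/HB (0.22, 0.1 and 0.122). Gria1, Gria4 and Gabra4 differed little between the 2 kinds of CBX cells, with means of 1248.5, 2160 and 254.3 CPM in the 16 and 1105.98, 2211 and 241.6 CPM in the 65.

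Neuronal markers stood beside these genes as follows. Of the 10 pan-neuronal markers 2 were higher in CBX than in VISp astrocytes and 0 lower, and their sums, with all 10 above 0, overlapped at 238.8 to 427.9 against 74.3 to 450.7 CPM. Of 5 granule cell markers tested 3 were higher, Cbln3 (13.8 CPM), Fat2 (15.9) and Neurod1 (6.38), with Barhl2 at 0, and the list summed to 116.3 to 133.8 against 60.7 to 181.6 CPM. Of the 6 Purkinje cell markers 3 were higher and 1 lower, with sums of 99.6 to 268.8 against 95.2 to 190.8 CPM, and Pcp2 was at 9.42 to 69.1 CPM. The GABAergic list summed to 635.4 to 727.2 against 1.34 to 96.7 CPM, of which Npy was 534.8 to 701.1 CPM and Gad1 3.52 to 24 CPM in CBX, with Dlx1, Dlx6os1 and Vip at 0. The part of this RNA in the Gabrd result was not tested beyond leaving out those cells. Summed markers of non-neuronal cells also stood at different levels by tissue, some with overlap, and the sums were not tested. Tested singly, 2 of 11 oligodendrocyte, 3 of 6 precursor, 1 of 2 vascular leptomeningeal and 1 of 6 endothelial markers were higher in CBX than in VISp. Of 5 mural markers 1 was lower in CBX and 0 higher. In MB/HB 3 of 11, 1 of 6, 2 of 2 and 2 of 6 of those 4 lists and 2 of 5 mural markers were higher than in VISp, with 0 lower. The oligodendrocyte list summed to 2267 to 2600 CPM in CBX, with Cldn11 and Ugt8a at 0. Most of that sum was Cnp (1781.98 to 2018 CPM) and Gjc3 (332.3 to 377.6 CPM), which were at 164.1 to 429.9 and 0 to 2.63 CPM in VISp. Mbp, the next highest of the list in CBX at 76.3 to 113.2 CPM, lay within its VISp range of 6.18 to 774.7 CPM. The 7 markers of oligodendrocyte precursors summed to 69.9 to 71.8 CPM in CBX and 28.7 to 86.7 in MB/HB against 4.09 to 33.5 in VISp, with Gpr17 at 0 in all 3 and Cspg4 at 0 in CBX. Of these sums Cacng4, which is also counted below as an AMPA auxiliary gene, was 29.5 to 34.2 CPM in CBX and 23.3 to 49.7 CPM in MB/HB. Pdgfra was at most 1.87 and 2.25 CPM in the 2 tissues. The 6 markers of vascular leptomeningeal cells summed to 49.2 to 58 CPM in CBX and 29.9 to 70.6 in MB/HB against 0.197 to 13.8 in VISp, with Lum, Col3a1 and Slc6a13 at 0 in CBX. In MB/HB the mural list summed to 5.99 to 1286.4 CPM and the endothelial list to 1.27 to 459.7 CPM, against 30.4 to 98.2 and 1.18 to 26.6 in VISp. These ranges overlapped, and the medians were 60.7 and 42.5 CPM in MB/HB against 40 and 4.68 CPM in VISp. The part of this RNA in the tissue differences was not tested beyond leaving out cells with other-class RNA. That setting did not use the Bergmann glia list, so the part of those markers in the MB/HB differences was not tested. In MB/HB astrocytes the pan-neuronal list summed to 58.9 to 540.6 CPM, and the oligodendrocyte list to 827.2 to 6285 CPM against 171.1 to 1311.4 CPM in VISp, and leaving out cells with other-class RNA ended none of the MB/HB calls of Gria1, Gria2, Gria4, Grik4, Grin2c, Grin3a, Grm3 and Grm5.

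Partner genes of the receptors were counted in lists of known auxiliary subunits, scaffolds and signalling proteins. Unlike the receptor genes, they were not excluded from the clustering and could help form the classes and clusters compared. Of all genes tested, 5.82% were higher and 6.4% lower in CBX than in VISp, and 5.45% higher and 6.75% lower in MB/HB. Of 16 AMPA auxiliary genes, 4 were higher and 0 lower in CBX than in VISp, and 5 higher and 0 lower in MB/HB. Cacng5, a TARP that binds AMPA receptors and a leading gene of the CBX cluster, was at 456.1 CPM in CBX, 30.7 in MB/HB and 0.275 in VISp (8.63 ± 0.93, adjusted p = 1.8e-08). Olfm2, Cacng4 and Shisa9 were higher in both tissues, by 2.47 to 3.71 in CBX and 1.95 to 3.37 in MB/HB on the log2 scale. Median log2 differences of this list were 0.78 and 0.94. Of 9 kainate and delta partners tested, 3 were higher and 2 lower in CBX than in VISp, where the synaptic adhesion gene Nrxn3 stood at 245.6 against 51.4 CPM (2.49 ± 0.55). Cbln1, a secreted synaptic organizer, was at 6.13 against 0.145 CPM (2.68 ± 0.35). The part of granule cell RNA, whose markers are given above, in this low level was not tested.

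In the other lists, 0 of 16 tested scaffold genes passed between CBX and VISp and 2 were higher in MB/HB, Homer2 (2.17 ± 0.60) and Shank3 (1.77 ± 0.59). Of 8 GABA-A partners, Gphn, which encodes the scaffold gephyrin, was lower in CBX (175.6 against 401.3 CPM) and Gabarap higher. Lhfpl3 was higher in MB/HB, at 136.1 against 5.61 CPM (4.69 ± 0.63, adjusted p = 1.6e-06). Of 12 metabotropic signalling and GABA-B genes, 1 was higher and 2 lower in CBX than in VISp, namely Itpr1, Gabbr1 and Gabbr2. In MB/HB 3 were higher, Itpr1 (2.64 ± 0.39), Plcb1 (1.76 ± 0.21) and Prkca (1.15 ± 0.38), and Gabbr2 (-1.32 ± 0.33) was among the 2 that were lower. Itpr1, Plcb1 and Prkca encode the calcium-store channel, phospholipase and kinase downstream of Gq-coupled receptors such as mGlu5.

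The second question was how oligodendrocytes and astrocytes of the same tissue differ. In VISp, 22 of 38 subunit genes tested passed, 6 higher and 16 lower in oligodendrocytes, where 59.9% of 4675 genes tested passed, so the share of subunits (57.9%) was near the background. The median log2 difference was -0.38 for the subunits and -0.20 for all genes. The 2 classes come from different vectors, which cannot be told apart from the class.

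A run of 4 GABA-A genes on chromosome 5 was lower in oligodendrocytes without overlap, from Gabrg1 (chr5:70751047-70842617) over Gabra2 (chr5:70957597-71095849) and Gabra4 (chr5:71569749-71658308) to Gabrb1 (chr5:71658113-72149037) in mm10. Together they supply alpha, beta and gamma subunits. Gabrb1 was at 1.8 to 22 CPM with a median of 6.59 in oligodendrocytes and 788.2 to 1861.9 CPM with a median of 1306.3 in astrocytes (log2 difference -7.26 ± 0.21, adjusted p = 4.3e-33). Gabrg1 was at 0 to 19.7 CPM with a median of 1.95 against 215.9 to 413.2 CPM (-6.64 ± 0.33, adjusted p = 8.0e-24). Gabra2 was at 0 to 6.78 CPM with a median of 0.445 against 69.9 to 331.7 CPM (-6.52 ± 0.28, adjusted p = 5.1e-26), and Gabra4 at 0 to 15.5 CPM with a median of 1.02 against 25.3 to 109.5 CPM (-4.60 ± 0.32, adjusted p = 3.3e-18). Gabra4 and Gabrb1 overlap on opposite strands, where reads of one cannot be told from the other if strand was not used. Gabrg3 was lower too, with overlap (0.333 to 13.8 against 7.05 to 33.5 CPM, -2.73 ± 0.24, adjusted p = 2.1e-14).

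A Gabrb1 read was still found in 67.5% of oligodendrocytes, at a mean of 9.05 CPM, and in 30.1% after thinning to 100000 reads. Gabrb1 and Gabrg1 were read together in 2% of oligodendrocytes and 79.8% of astrocytes.

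The other large differences downward were in glutamate receptors. Grin2c was at 0 to 9.1 CPM with a median of 1.65 in oligodendrocytes against 142.3 to 296.5 CPM (-6.48 ± 0.26, adjusted p = 3.3e-27). Gria2 was at 0.0929 to 61.8 CPM with a median of 17.2 against 274.9 to 805.6 CPM (-4.96 ± 0.27, adjusted p = 7.4e-22). Neither overlapped between classes. Grid1 (0 to 64.1 against 14.6 to 133.3 CPM, -4.52 ± 0.35, adjusted p = 2.5e-16) was lower with overlap. So were Gria1 (0 to 17.8 against 5.17 to 154.8 CPM, -2.54 ± 0.41, adjusted p = 5.2e-07), Grin2b (0.0922 to 83.1 against 10.6 to 60.4 CPM, -2.56 ± 0.37, adjusted p = 3.1e-08) and Grin3a (0 to 8.04 against 0 to 54.4 CPM, -2.15 ± 0.40, adjusted p = 6.7e-06). Grik5 stood at 1.36 to 27.7 against 8.48 to 51 CPM (-1.79 ± 0.25, adjusted p = 2.3e-08), and Grm5 at 0.12 to 41.6 against 0.211 to 50 CPM (-1.41 ± 0.45, adjusted p = 0.00653, lost on the mean of log2 values over cells with adjusted p = 0.147). Gria3 also passed as lower, at a mean of 2.61 against 6.82 CPM.

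Grm3 was lower in oligodendrocytes but remained their most abundant subunit, at 281.5 to 579.1 CPM with a median of 445.6 against 892.1 to 1633.2 CPM with a median of 1182.7 in astrocytes, with no overlap (-1.43 ± 0.11, adjusted p = 4.0e-17). It was read in 94.6% of oligodendrocytes and 98.2% of astrocytes. Both exceeded the levels in CBX and MB/HB astrocytes given above, a contrast across tissue and class that was not tested.

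Upward, Gria4 had the largest difference. It was at 26.5 to 119.9 CPM with a median of 58.7 in oligodendrocytes and 0.113 to 19.7 CPM with a median of 1.13 in astrocytes, without overlap (log2 difference 4.11 ± 0.30, adjusted p = 2.6e-17). Grm7, an inhibitory presynaptic receptor in neurons, was at 11 to 169.97 CPM with a median of 68.4 against 0.472 to 42 CPM with a median of 1.45, with overlap (4.06 ± 0.37, adjusted p = 5.6e-14). Gabrr2, the rho2 subunit of GABA-A rho (formerly GABA-C) receptors, was at 0.444 to 50.7 CPM with a median of 18.9 against 0 to 19.5 CPM with a median of 0.979 (2.63 ± 0.40, adjusted p = 1.3e-07). A Gabrr2 read was found in 14.9% of oligodendrocytes, a Grm7 read in 53.1% and a Gria4 read in 46.9%, and the remaining cells had none. In VISp astrocytes these shares were 9.47%, 31.1% and 26%. By mouse, the Gabrr2 share was 0% to 82.5% in astrocytes and 4.55% to 27.3% in oligodendrocytes. Grik3 (11.9 to 28.3 against 6.42 to 26.3 CPM, 0.95 ± 0.16, adjusted p = 1.3e-06) and Grik2 (42 to 129.7 against 29.8 to 163.3 CPM, 0.51 ± 0.17, adjusted p = 0.00811) were higher by small steps, and Grik2 lost its call when clusters were named by the ratio of mean CPM (adjusted p = 0.118). Grm8 also passed as higher, at a mean of 5.12 against 3.29 CPM.

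Markers of oligodendrocyte precursors, which express AMPA receptors, were set beside these values. The 7 genes of that list summed to 302.7 to 673.3 CPM in oligodendrocytes and 4.09 to 33.5 CPM in astrocytes, with all 7 above 0 in oligodendrocytes. Within it, Pdgfra was at 0 to 13 CPM, Cspg4 at 0 to 11.8 CPM and Sox10, which mature oligodendrocytes also express and which made up nearly all of the sum, at 301.9 to 671.8 CPM. Means of Pdgfra and Gpr17 were higher in oligodendrocytes (1.38 and 1.36 CPM) than in astrocytes (0.1 and 0 CPM). Means of the other 4 were lower in oligodendrocytes: Cspg4 at 1.35 against 2.08 CPM, C1ql1 at 0.441 against 1.12, Cacng4 at 0.298 against 4.76 and Vcan at 0.726 against 7.18. The part of precursor RNA in the Gria4 and Gabrr2 results was not tested.

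The partner lists are to be read against all genes tested, of which 22.4% were higher and 37.5% lower in oligodendrocytes. With that background, 3 of 16 AMPA auxiliary genes were higher in oligodendrocytes and 7 lower, with Shisa9 (-4.20 ± 0.30), Cacng8 (-3.60 ± 0.21) and Cacng4 (-1.70 ± 0.30) lower and Cnih3 (2.30 ± 0.32) higher. Of 12 metabotropic signalling and GABA-B genes, 2 were higher and 8 lower; the largest differences were in Plcb1 (7.99 against 364.99 CPM), Gabbr2 (5.56 against 119.7 CPM), Itpr2 and Plcb3, all lower. Of 17 scaffold genes, 2 were higher and 7 lower, led by Dlgap1 (-3.80 ± 0.19) and Grip1 (-3.42 ± 0.36). The GABA-A partners had 3 higher and 2 lower of 8, and the kainate and delta partners 1 higher and 4 lower of 9. Of these lists, the share that passed was near that of all genes in the AMPA auxiliary, scaffold, GABA-A and kainate and delta lists.

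**Figure D4:**
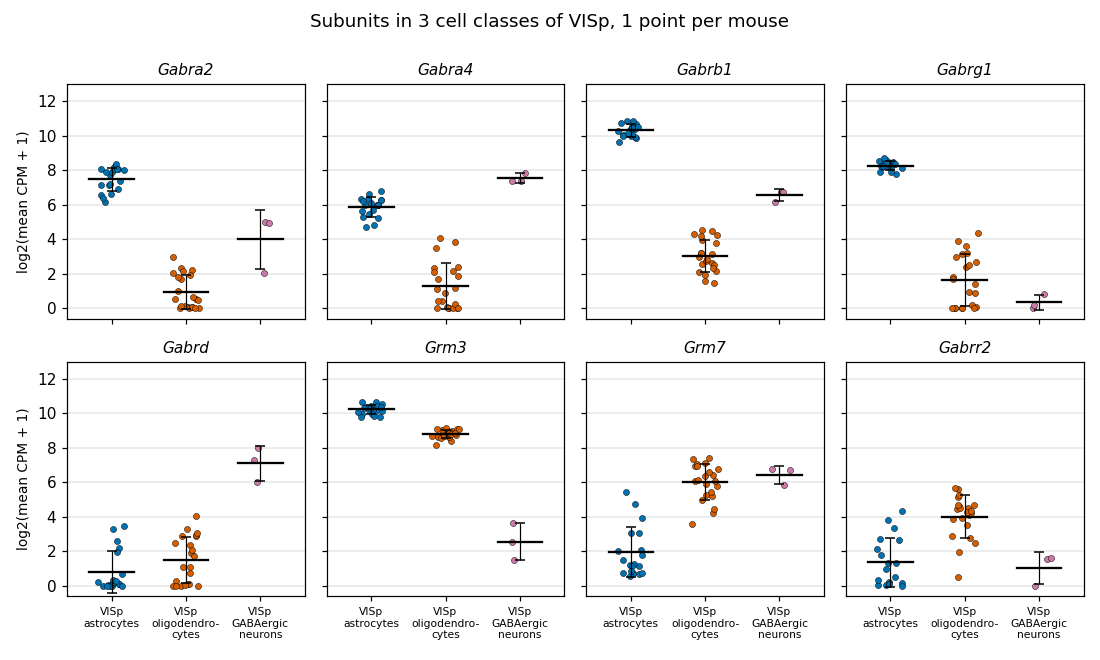
Levels of 8 subunits in VISp astrocytes, oligodendrocytes and GABAergic neurons (horizontal axis) as log2(mean CPM + 1), 1 point per mouse, with the mean and SD as lines and bars. Gabra2, Gabrb1, Gabrg1 and Grm3 are highest in astrocytes, Gabra4 and Gabrd in neurons, and Gabrr2 in oligodendrocytes.

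The third question was how GABAergic neurons of VISp compare with both glial classes. Against astrocytes 31 of 38 subunit genes passed, 25 higher and 6 lower in neurons, where 45.7% of 4675 genes did. Against oligodendrocytes 30 passed, 28 higher and 2 lower, against 43.7% of all genes. The median log2 difference of the subunits was 2.75 and 3.40, and that of all genes 0.01 and 0.23. These 2 comparisons share the 3 neuron mice, which also gave some of the glia; with the mouse as a random block the counts were also 31 and 30.

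Gabrd, whose subunit is known from receptors outside synapses, was far higher in neurons. It was at 255.3, 156.6 and 64.1 CPM in the 3 mice, against 0 to 10 CPM in astrocytes and 0 to 15.6 CPM in oligodendrocytes (6.28 ± 0.76, adjusted p = 1.0e-09, and 5.60 ± 0.76, adjusted p = 1.6e-08), and was read in 63.5% of neurons. No VISp glial mouse reached the lowest neuron mouse.

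Alpha, beta and gamma subunits of neurons were higher as well. Gabra3 was at 33.2, 100.4 and 88.6 CPM in neurons (5.74 ± 0.36, adjusted p = 8.6e-19 against astrocytes), and Gabra5 at 154.7, 12.3 and 20.7 CPM (5.03 ± 0.43, adjusted p = 2.1e-14). MouseID-614201 had the highest Gabra5 and the lowest Gabra3 of the 3. The 3 mice also differed in markers of the GABAergic list, with Vip at 0 to 3059 CPM, Pvalb at 0.379 to 471.4 and Npy at 1347.8 to 13495. Sst was alike, at 5742 to 6382 CPM. The part of the mix of neuron types in differences between these mice was not tested. Gabrb2 was at 83.1, 43.5 and 32.5 CPM (4.78 ± 0.58, adjusted p = 1.2e-09), and Gabrg3 was at 200.2, 102.8 and 100.3 CPM (2.87 ± 0.47, adjusted p = 1.3e-06). All 4 genes (Gabra3, Gabra5, Gabrb2 and Gabrg3) were also higher than in oligodendrocytes, by 5.42 ± 0.36, 4.78 ± 0.42, 5.10 ± 0.58 and 5.60 ± 0.47, and did not overlap either glial group. Reads of genes that overlap on opposite strands cannot be told apart if strand was not used, which bears on Gabra5. Gabra6 had no read in the 52 neurons, which allows up to 0.14 CPM.

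The chromosome 5 subunits set neurons apart from astrocytes in the other direction. Gabrg1 was at 0, 0.8 and 0.118 CPM in neurons against 215.9 to 413.2 CPM in astrocytes (-7.93 ± 0.65, adjusted p = 6.6e-15), and did not pass against oligodendrocytes (adjusted p = 0.101). Gabrb1 was at 107.01, 70.1 and 106.8 CPM, below all astrocyte mice (-3.75 ± 0.43, adjusted p = 1.6e-10) and above all oligodendrocyte mice (3.51 ± 0.42, adjusted p = 7.7e-10). Gabra2 was at 3.09, 31.6 and 29.9 CPM, below astrocytes (-3.46 ± 0.56, adjusted p = 9.2e-07) and above oligodendrocytes with overlap (3.06 ± 0.56, adjusted p = 8.4e-06). Gabra4, in contrast, was higher in neurons than in both, at 230.3, 167.4 and 168.04 CPM (1.67 ± 0.63, adjusted p = 0.0248, and 6.27 ± 0.62, adjusted p = 3.0e-12); the call against astrocytes was lost without MouseID-614201 (adjusted p = 0.112), MouseID-638254 (0.0631) or MouseID-651227 (0.0642) and with a pseudocount of 0.1 CPM (0.236).

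All 4 AMPA genes were high in every neuron mouse. Gria1 was at 228.4, 532.6 and 528.3 CPM (4.47 ± 0.82, adjusted p = 8.4e-06 against astrocytes), Gria3 at 310.4, 290.3 and 338.99 CPM (5.98 ± 0.78, adjusted p = 5.7e-09) and Gria4 at 269.8, 396.8 and 354.7 CPM (6.73 ± 0.59, adjusted p = 7.3e-14), each above all VISp glial mice. Gria2 was at 488.9, 373.04 and 405.8 CPM, within the astrocyte range, and did not pass against astrocytes (-0.28 ± 0.54, adjusted p = 0.7), whereas it was above all oligodendrocyte mice (4.67 ± 0.54, adjusted p = 2.5e-10). Against oligodendrocytes Gria1, Gria3 and Gria4 were higher by 7.02 ± 0.81, 6.93 ± 0.77 and 2.62 ± 0.59. Per kb, Gria2 was 21.9, 11.7 and 12.8% of the AMPA sum in the 3 neuron mice. Every one of the 52 neurons had reads of Gria1, Gria2 and Gria4.

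Of the NMDA genes, Grin1 was at 91.7, 115.8 and 76 CPM (4.85 ± 0.66, adjusted p = 1.7e-08, against astrocytes). Of its partner subunits, Grin2a was at 205.3, 181.8 and 111.04 CPM (5.42 ± 1.03, adjusted p = 1.5e-05) and Grin2b at 302.5, 205.8 and 216.4 CPM (2.80 ± 0.73, adjusted p = 0.00118). Grin3a was at 119.5, 109.2 and 129.9 CPM (3.83 ± 0.79, adjusted p = 5.7e-05). Each of these 4 lay above all astrocyte and oligodendrocyte mice, with differences from oligodendrocytes of 4.67 ± 0.65, 5.31 ± 1.02, 5.36 ± 0.72 and 5.97 ± 0.78. Grin2d was lower in level, at 13.5, 12.5 and 9.36 CPM (2.84 ± 0.40, adjusted p = 3.2e-08, and 3.28 ± 0.39, adjusted p = 7.2e-10). Grin2c had no read in the 52 neurons, which allows up to 0.14 CPM, against 142.3 to 296.5 CPM in astrocytes (adjusted p = 1.5e-17), and did not pass against oligodendrocytes (adjusted p = 0.0682). Grin1 overlaps its antisense transcript Grin1os, which was at 4.14, 2 and 0.429 CPM in neurons and at most 0.354 CPM in VISp glial mice.

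Of the kainate genes, Grik1, Grik2 and Grik3 passed against astrocytes. Grik2 was at 115.6, 134.5 and 209.2 CPM (1.33 ± 0.34, adjusted p = 0.00086, against astrocytes and 0.82 ± 0.33, adjusted p = 0.0403, against oligodendrocytes) and overlapped both. Grik3 was at 12.9, 53.6 and 47.8 CPM (1.57 ± 0.32, adjusted p = 5.0e-05, against astrocytes, with overlap). Grik1 was at 144.5, 24.3 and 54.5 CPM (2.24 ± 0.82, adjusted p = 0.0219, and 3.01 ± 0.82, adjusted p = 0.00192). Grik5 was at 17.2, 29.6 and 19.3 CPM and passed against oligodendrocytes with overlap (1.65 ± 0.50, adjusted p = 0.00507) but not against astrocytes (adjusted p = 0.842). Several of these calls were lost when 1 mouse was left out. Grik1 lost its call against astrocytes without MouseID-614201 (adjusted p = 0.211), without MouseID-651227 (0.065) and with a pseudocount of 0.1 CPM (0.0706), and against oligodendrocytes without MouseID-614201 (0.0514). Grik2 lost it against oligodendrocytes without MouseID-638254 (0.0786) or MouseID-651227 (0.287), on plates with the AB prefix alone (0.0718) and under median-ratio scaling (0.111), and Grik5 without MouseID-638254 (0.0555). The delta receptor gene Grid1 was at 12.4, 22.7 and 25.4 CPM, above oligodendrocytes with overlap (3.08 ± 0.69, adjusted p = 0.000192) and not called against astrocytes (adjusted p = 0.0852).

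Among metabotropic genes Grm3 was lower and Grm5 was higher in neurons than in both glial classes. Grm3 was at 11.7, 1.79 and 4.96 CPM in neurons, below every mouse of both glial classes (-7.66 ± 0.21, adjusted p = 2.2e-33, and -6.23 ± 0.21, adjusted p = 3.9e-30). Grm5 was at 296.7, 144.9 and 223.5 CPM (4.77 ± 0.90, adjusted p = 1.5e-05, and 6.18 ± 0.89, adjusted p = 8.0e-08), above all glial mice of VISp. Grm4 was higher from low levels, at 1.9, 18.1 and 12.1 CPM (2.70 ± 0.40, adjusted p = 1.1e-07, and 2.86 ± 0.39, adjusted p = 2.4e-08), with overlap. Grm7 was at 55.9, 102.98 and 107.5 CPM, above astrocytes (4.49 ± 0.73, adjusted p = 8.4e-07) and did not pass against oligodendrocytes (0.42 ± 0.72, adjusted p = 0.706). Grm8 was at 12.3, 14 and 32 CPM (2.64 ± 0.59, adjusted p = 0.000167, and 1.81 ± 0.58, adjusted p = 0.00848), with overlap. The latter difference turned to -0.38 on the mean of log2 values over cells and did not pass without MouseID-651227 (adjusted p = 0.113). Gabrr2 was at 0, 1.9 and 2.02 CPM, below oligodendrocytes with overlap (-2.96 ± 0.79, adjusted p = 0.00155).

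Partner genes of neurons were counted in the same lists, which were not excluded from the clustering. Olfm3 was also among the leading genes of a neuron sub-cluster. Of all genes tested, 25.4% were higher and 20.3% lower in neurons than in astrocytes, and 29% higher and 14.6% lower than in oligodendrocytes. Against astrocytes 11 of 16 AMPA auxiliary genes were higher and 1 lower, led by Cacng3 (316.4 against 2.65 CPM, 7.27 ± 0.79), Olfm3, Olfm2 and Cacng2. Of 9 kainate and delta partners 5 were higher and 1 lower, with Cbln4 (6.54 ± 0.42), Neto1, an auxiliary subunit of kainate receptors (6.29 ± 0.62), Nrxn3 (4.18 ± 0.76) and Neto2 (3.41 ± 0.71) at the top. Of 17 scaffolds 9 were higher and 2 lower, of 8 GABA-A partners 4 and 1, and of 12 metabotropic and GABA-B genes 3 and 3. Gphn was lower in neurons than in astrocytes (119.6 against 401.3 CPM, -1.72 ± 0.22). All 3 editing genes were higher, Adarb1, which edits the calcium-gating site of Gria2, at 40.8 against 7.39 CPM (2.70 ± 0.67, adjusted p = 0.000763) and Adarb2 at 212.4 against 1.31 CPM. Against oligodendrocytes the counts were 14 higher and 0 lower of 16, 7 and 1 of 9, 13 and 2 of 17, 3 and 2 of 8, 7 and 1 of 12, and 3 and 0 of 3.

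**Figure D5:**
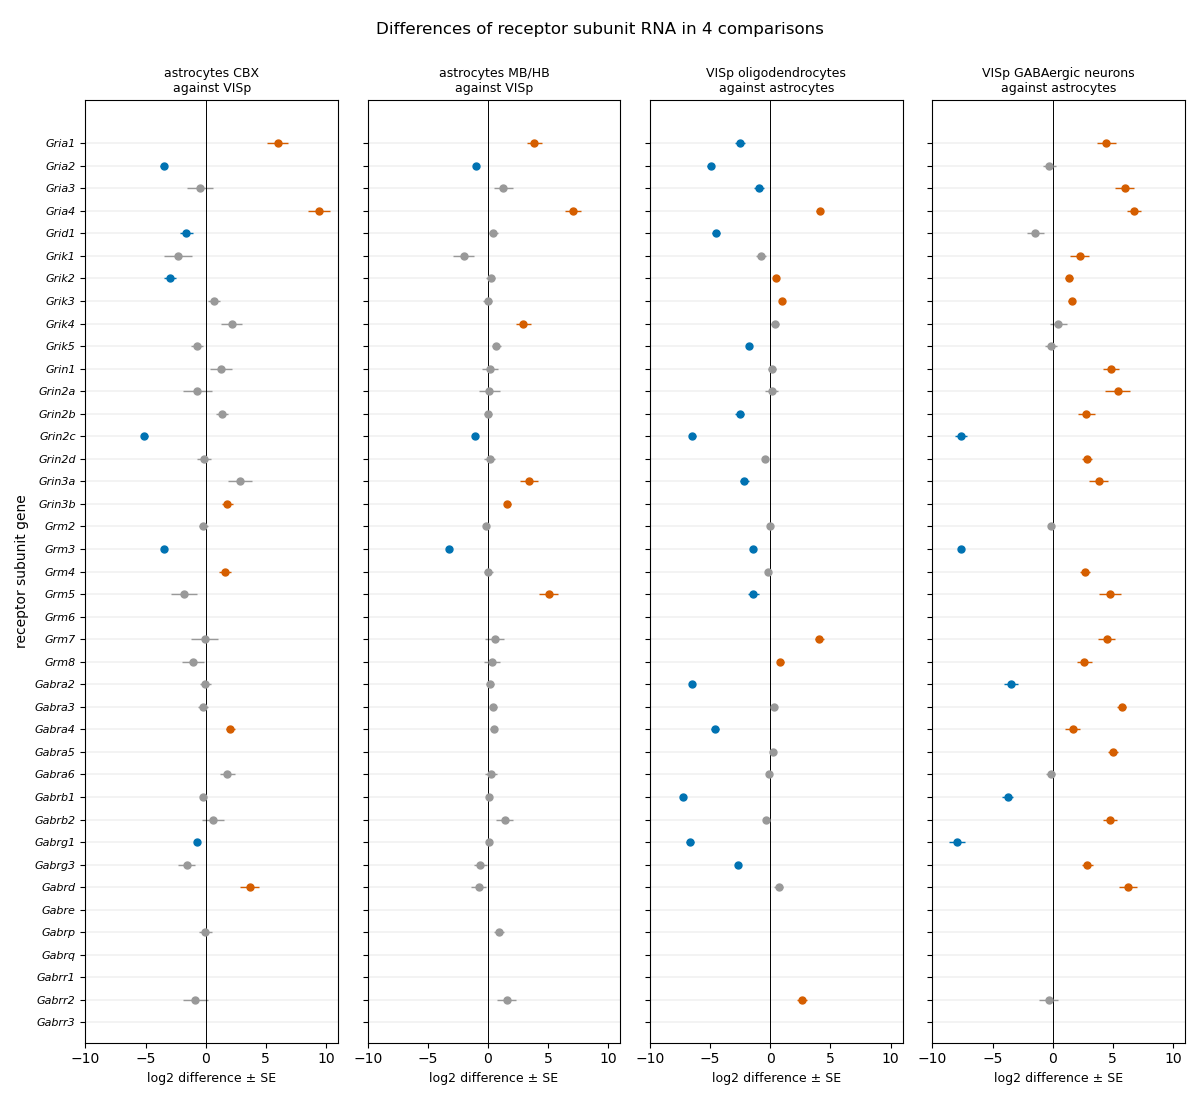
Log2 differences with SE (horizontal axis) of 40 subunit genes (vertical axis) in 4 comparisons. Orange is higher and blue lower at an adjusted p under 0.05, grey did not pass, and genes without a point were not tested. Gria4 is higher in all 4, and Gabrg1 and Grin2c are lower in 3 or more.

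The 12 neurons of the MB/HB mouse gave 1 value per gene and no test. Their markers were mixed: Gad1 was at 351.5 and Gad2 at 300.2 CPM, but Slc32a1, the vesicular GABA transporter, at 4.81 CPM and Slc17a6, a vesicular glutamate transporter, at 433.98 CPM. The glutamatergic list summed to 481.7 CPM in them, against 10.6 to 21 CPM in the VISp GABAergic neurons, and the GABAergic list to 2004 CPM, so they are called neurons only and compared with no group. Gabrg1 was at 141.3 CPM, Gria1 at 73 CPM and Gria3 at 132.9 CPM, and no read of Gabrd was found. A count of 0 in 12 cells allows up to 25% of cells with a read at this depth, which is no limit on cells that express the gene.

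In all, 8 subunit genes were not tested in a fit because fewer than 2 of its mice reached a mean of 1 CPM. These were Gabre, Gabrq, Gabrr1, Gabrr3 and Grm6 in all comparisons, Gabra5 between tissues, and Gabrp and Grin3b between classes. Among the 5 left out everywhere, the highest level of a VISp, MB/HB or CBX glial mouse was 5.91 CPM for Gabre and 3.64 CPM for Grm6, each in 1 VISp astrocyte mouse. Gabrp reached 12.5 CPM in 1 MB/HB astrocyte mouse. Grm2, which was tested, passed in no comparison and did not exceed 1.7 CPM in any VISp glial mouse. Gabra6, known from granule cells, was at 12.2 and 0.195 CPM in CBX astrocytes and passed in no comparison.

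Grik3 was read in most glial cells at low levels. A Grik3 read was found in 98.8% of CBX, 79.7% of MB/HB and 87.1% of VISp astrocytes and in 99.3% of oligodendrocytes, at means of only 17.3, 10.5, 11 and 21.1 CPM. Gria4 at 58.4 CPM was read in 46.9% of oligodendrocytes. Other subunits also had low means over many oligodendrocytes, with Grm8 at 5.12 CPM in 71.9%, Gabrb1 at 9.05 CPM in 67.5% and Grin1 at 3.59 CPM in 37.8% of them. After thinning to 100000 reads the Grik3 shares were 79%, 50%, 54.5% and 82.7%. Gene counts do not show which part of Grik3 these reads came from.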

How the data were processed

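Expression was measured in 2040 sorted cells in CPM (a gene's reads scaled to a fixed total per cell), deposited by the authors as 1 table with a row per cell. Per the submitters' processing notes, reads were aligned with STAR to mm10, and the counting tool, annotation and use of strand are not given in the sources used here. All 9484843 positive values of the 32245 gene columns were whole reads within 0.001 of a read, which gave each cell's depth. Tests ran on 5066 columns: 217 for the 47 members and list genes, and 4849 drawn at random, once, from genes with a read in at least 21 cells. The other 27179 served only for depth, so p-values are adjusted over this panel and not over the whole table.

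Cells were clustered on log2(CPM + 1) of 2000 variable genes, members excluded, with 30 principal components, 15 neighbours and Leiden resolution 1 (leidenalg 0.10.2, scikit-learn 1.9.0), giving 10 clusters named from at least 3 detected markers among fixed lists. The counting of the Bergmann glia list as an astrocyte list and the sub-clustering of neurons were decided after the clusters were seen. No doublet caller was run, since each cell was sorted alone; cells with other-class RNA were left out in an alternative. Mice with under 10 cells of a glial class, or under 5 neurons, were left out of that class. CPM was averaged per mouse and class, genes with a mean of at least 1 CPM in at least 2 mice were kept, and log2(mean + 1) was tested with limma 3.58.1 in R 4.3.3 (trend, empirical Bayes), 1 fit for the 3 astrocyte groups and 1 for the 3 VISp classes, each after a check on simulated data. Subunits past an adjusted p of 0.05 and with a mean of at least 10 CPM in a compared group are given mouse by mouse, and partner genes by list, up to 4 per list and comparison with the largest difference. Results of some genes are not reported here, though the counts over subunits and lists include them. The members, lists and rules were chosen with earlier results of these data known. Alternatives covered the pseudocount, filter, summary, scaling, class calls, plates, cell minimum and single mice.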

Additional observations from a re-analysis of the deposited data

Results flagged for a closer look

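In the MB/HB astrocytes, the only group here of 4 to 10 mice, the highest or lowest mouse of 2 among 21 subunit genes stood apart from the nearest other mouse by a share of the group's log2 range beyond Dixon's critical value for 4 samples. Gabrr2 was lowest in MouseID-651222 (0.839 of the range), with 16.8, 0, 10.2 and 15.4 CPM in the order of mice used above. Grm7 was highest in MouseID-651229 (0.863), with 1.26, 2.49, 1.47 and 51.3 CPM. Only genes with a mean of at least 10 CPM in this group were examined. Grm7, with a mean of 14.1 CPM, met that only through MouseID-651229. Chance alone flags about 1 in 20 groups, a share that does not hold for a gene that entered in this way. Neither gene passed between tissues.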

How the results depend on the processing

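Of the differences of named subunits, 80 kept their direction and stayed past the threshold under every alternative run, and the other 17 were lost at least once. Gabrg1 turned to 0.16 between CBX and MB/HB astrocytes, and Grm8 to -0.38 between neurons and oligodendrocytes, when log2 values were averaged over cells; the cause was not tested. The count of subunits called between CBX and MB/HB astrocytes, 10, was 5 to 10 with 1 mouse left out, and the 5 and 6 came from the fits with 1 CBX mouse, which have fewer samples. The counts of all other settings were within 1.5 times the main ones. Reads summed per mouse, an alternative chosen after seeing the data, changed no call of a named subunit. The planned count-model test on recovered reads was not run. The replicate numbers in the labels name cells within a mouse and pair no samples, but 3 mice gave cells of 2 VISp classes each. The mouse as a random block (correlation 0.0702) left the 3 VISp counts at 22, 31 and 30. Calls near 1 CPM rest on few reads and few cells.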
